A study of Mus musculus with 6 samples.

Results

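The 31 genes described here encode adenosine triphosphate (ATP)-driven chromatin remodellers and their close relatives: the subunits of SWI/SNF that carry SMARC names, the ISWI motors, the ARID family of DNA-binding proteins and the CHD helicases. They are all the genes on the array whose current symbol is Smarc followed by a letter from a to e, Arid followed by a digit and a letter, or Chd followed by a digit, 31 of 23185 named genes. The rule reads names and no measured value, though it was set with earlier results of these data known. Expression was measured in hematopoietic stem cells (HSCs) taken fresh from the bone marrow of young mice and sorted, in a double sort, as CD150+CD48-LSK cells, where LSK stands for cells without lineage markers that carry Sca-1 and c-Kit. One group was Merit40-/- (3 arrays), which lacks the gene Babam1, and the other was wild type (WT, 3 arrays). No treatment was given to either group, and the labels state neither the strain, the sex, the design of the deleted allele nor the number of mice behind each array.

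SWI/SNF complexes slide or evict nucleosomes and so open enhancers and promoters. A complex carries a single ATPase motor, SMARCA4 or SMARCA2, on a core of scaffold subunits. Some forms also hold an ARID subunit, which helps to set the kind of complex. ISWI motors space nucleosomes evenly, and CHD proteins act alone or, for CHD3, CHD4 and CHD5, inside the deacetylase complex NuRD. In blood, SMARCA4 and CHD4 are known to be needed for the maintenance and differentiation of stem and progenitor cells. Merit40, the product of Babam1, is a scaffold of the BRISC and BRCA1-A complexes, which remove lysine-63-linked ubiquitin chains.

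The values are log2 expression values made by RMA, a procedure that corrects background, equalises the intensity distributions of the arrays and combines the probes of each gene. Levels of different genes are not comparable as amounts of transcript. A gene below the median of all named genes, 4.93, is treated here as dim. Babam1 read 4.29, 3.87 and 4.01 on the Merit40-/- arrays and 7.91, 8.04 and 8.05 on the WT arrays. It was the only gene that passed an adjusted p of 0.05 in limma, at a difference of -3.94 (SE 0.14, adjusted p = 5.04e-05, n = 3 against 3). All 8 measured genes of a list of HSC markers lay above that median, among them the sorting markers Slamf1 (8.23 ± 0.35 in Merit40-/- and 8.05 ± 0.33 in WT, SD, n = 3 each) and Kit (11.06 ± 0.09 in Merit40-/- and 10.96 ± 0.03 in WT, SD, n = 3 each). Ly6a, the gene of the sorting marker Sca-1, was not among the measured ones. All 9 measured granulocyte and monocyte genes lay at or above the same median too, so this position does not single out HSCs. Their mean was 8.91 to 9.56 on the Merit40-/- arrays and 8.98 to 9.37 on the WT arrays. Pearson's r across all probe sets, which are not independent replicates, was 0.984 to 0.988 over all pairs of arrays. A pair of arrays stood apart in genes of other cells. The mean of 12 skeletal muscle genes was 8.23 in Merit40-/- replicate 1 and 4.70 to 4.99 on the other 5 arrays. Of these genes Mb alone was not highest there, at 4.86 beside 4.98 in Merit40-/- replicate 3 and 4.90 in WT replicate 1. The mean of 8 osteoclast genes was 5.37 in Merit40-/- replicate 3 and 3.94 to 4.12 on the others. The mean of 8 megakaryocyte and platelet genes was 7.08 to 7.26 on the Merit40-/- arrays and 7.40 to 7.56 on the WT arrays. Of the 8, 6 had the lower mean in Merit40-/- and 2 the higher. None of the 8 passed the adjusted threshold in limma, and 2 were lower at an unadjusted p under 0.05. All 11 measured cell division genes had the lower mean in Merit40-/-, 1 of them at an unadjusted p under 0.05 in limma. Of 9 measured erythroid genes 7 were lower, 3 of them at an unadjusted p under 0.05 in limma, and 2 were higher. For both of these lists the array means overlapped between the genotypes.

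No remodeller gene passed the test between Merit40-/- and WT HSCs. At an adjusted p under 0.05 in limma, 0 of 31 passed, where 0.00431% of all named genes did. At an unadjusted p under 0.05, 0 of 31 passed as well, where 4.22% of all named genes did. Of the 31 genes, 17 had the higher mean in Merit40-/- and 14 the lower, and their median difference was 0.02, beside 0.0052 over all named genes. The median size of their differences, with sign dropped, was 0.05, beside 0.11 over all named genes and 0.11 over those at or above the median level. Neither set is matched in level: the median level was 8.25 for the remodeller genes, beside 4.93 and 7.10. Whether level accounts for the smaller size was not tested. In bulk RNA of sorted cells, fewer cells of a type and less RNA per cell cannot be told apart.

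**Figure D1:**
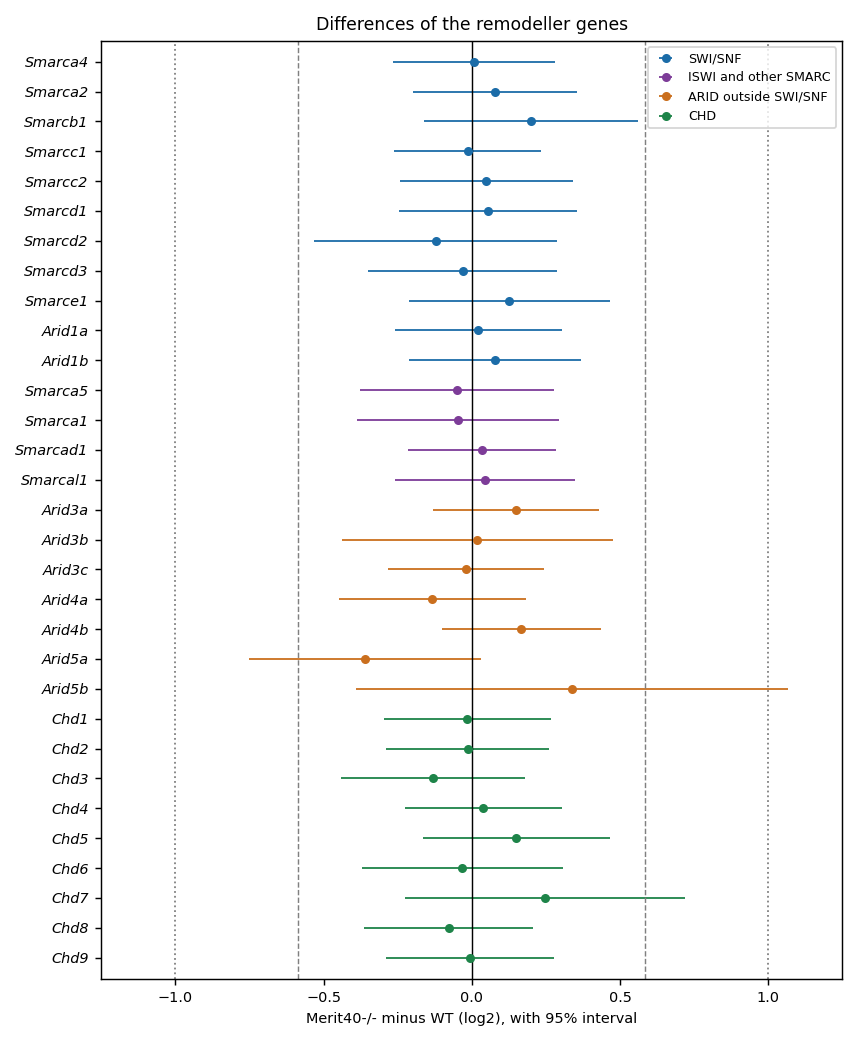
Difference between Merit40-/- and WT for each of the 31 remodeller genes, as Merit40-/- minus WT on the log2 scale (x axis), with limma's 95% interval as a bar and colour for the family. Dashed lines mark 1.5-fold and dotted lines 2-fold in either direction. Every interval includes 0, and the Arid5b interval alone crosses a dotted line.

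The 95% intervals excluded a change of 2-fold either way for 30 of 31 genes (96.8%), near the 96.4% of all named genes and the 95.7% of those at or above the median level. They excluded 1.5-fold for 28 of 31 (90.3%). Over all named genes 73.2% had an interval within 1.5-fold, and over the genes at or above the median level 68.2% did. These sets are not matched in level to the remodeller genes. The exceptions at 1.5-fold were Arid5a, Arid5b and Chd7, and the exception at 2-fold was Arid5b. The median half-width of the interval was 0.30 for the remodeller genes and 0.34 for all named genes. RMA compresses differences near background, so for the 4 genes below the median level (Smarca1, Arid5a, Chd5 and Chd7) the interval bounds the array reading rather than the transcript.

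**Figure D2:**
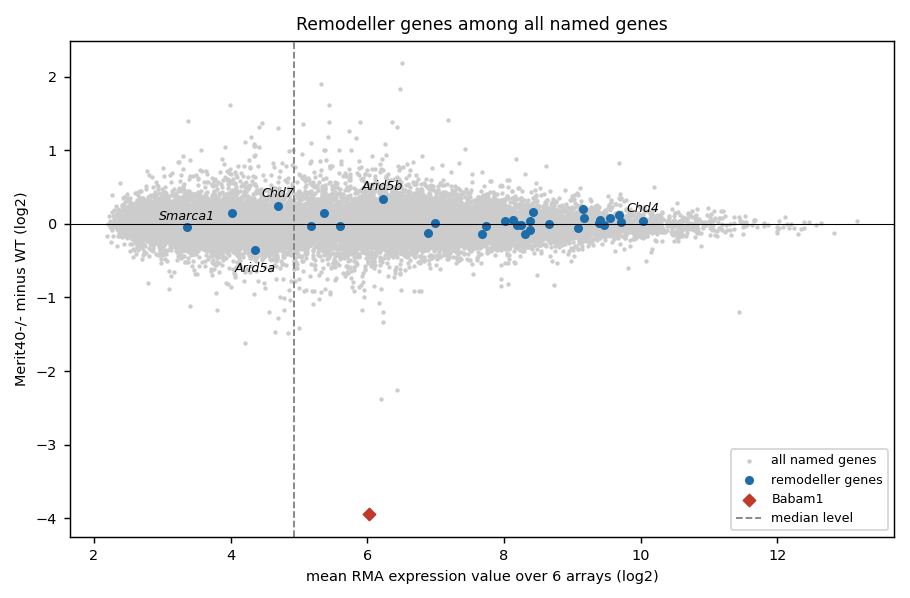
Difference between Merit40-/- and WT on the log2 scale (y axis) against the mean expression value over the 6 arrays on the log2 scale (x axis), for all 23185 named genes in grey, the 31 remodeller genes in blue and Babam1 in red. The remodeller genes lie between -0.36 and 0.34, and 27 of them lie right of the dashed line at the median level of 4.93.

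Neither SWI/SNF motor differed beyond the spread between arrays. Smarca4, which encodes the motor BRG1, read 9.44, 9.28 and 9.45 on the Merit40-/- arrays and 9.45, 9.42 and 9.26 on the WT arrays. The values of the genotypes overlapped throughout, and the difference was 0.0070 (SE 0.12, 95% interval -0.27 to 0.28). Smarca2, which encodes the alternative motor BRM, read 9.68, 9.66 and 9.43 in Merit40-/- and 9.46, 9.55 and 9.52 in WT. Replicates 1 and 2 of Merit40-/- were above every WT array and replicate 3 below them all, for a difference of 0.08 (95% interval -0.20 to 0.35).

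No core or scaffold subunit passed the test. Smarcc1 (BAF155), a scaffold of the complex, read 9.45, 9.46 and 9.44 in Merit40-/- and 9.41, 9.53 and 9.45 in WT, a difference of -0.01 (95% interval -0.26 to 0.23). Its paralog Smarcc2 (BAF170) read 9.62, 9.34 and 9.31 in Merit40-/- and 9.39, 9.39 and 9.35 in WT, with replicate 1 of Merit40-/- above all other arrays. Smarcb1 (SNF5), the core subunit that grips the nucleosome and is lost in rhabdoid tumours, had the largest difference of the SWI/SNF genes with all arrays. Smarcb1 lost that rank without WT replicate 1 (0.089), Merit40-/- replicate 2 (0.13) or Merit40-/- replicate 3 (0.14). It read 9.004, 9.39 and 9.37 in Merit40-/- and 8.84, 9.17 and 9.16 in WT, a difference of 0.20 (SE 0.16, 95% interval -0.16 to 0.56), with replicate 1 the lowest array of each genotype. Smarce1 (BAF57), a subunit with a DNA-bending domain, read 9.52, 9.72 and 10.00 in Merit40-/- and 9.57, 9.73 and 9.57 in WT. Its high value was that of Merit40-/- replicate 3, and without that array the difference was 0.00051, against 0.13 with it.

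The SMARCD subunits link the complex to transcription factors, and SMARCD2 is known for its part in making granulocytes. Smarcd1 averaged 8.16 ± 0.02 in Merit40-/- and 8.11 ± 0.19 in WT (SD, n = 3 each). Smarcd2 read 6.78, 6.54 and 7.17 in Merit40-/- and 6.89, 6.82 and 7.14 in WT, so that replicate 3 was the highest array in each genotype. Its difference was -0.12 (SE 0.18, 95% interval -0.53 to 0.29), with a range of 0.63 within Merit40-/-. Smarcd3, the member known from heart and brain, averaged 5.59 ± 0.07 in Merit40-/- and 5.62 ± 0.21 in WT (SD, n = 3 each).

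The ARID subunits of the BAF form of SWI/SNF also overlapped between genotypes. Arid1a, which is often mutated in human cancers, read 9.73, 9.75 and 9.67 in Merit40-/- and 9.72, 9.53 and 9.83 in WT. All 3 Merit40-/- values lay inside the WT range, and the difference was 0.02 (95% interval -0.26 to 0.30). Arid1b, its alternative in the complex, read 9.26, 9.13 and 9.24 in Merit40-/- and 9.27, 8.96 and 9.16 in WT, a difference of 0.08 (95% interval -0.21 to 0.37). Over the 11 SWI/SNF genes, 8 had the higher mean in Merit40-/- and 3 the lower, with a median difference of 0.05 and a smallest unadjusted p of 0.241 in limma.

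Of the ISWI motors, Smarca5 and Smarca1 stood on opposite sides of the median level in both genotypes. Smarca5 (SNF2H), the ISWI motor of most cells and one that mouse blood formation needs, read 8.88, 9.09 and 9.19 in Merit40-/- and 8.91, 9.26 and 9.14 in WT. Its difference was -0.05 (95% interval -0.38 to 0.28). Smarca1 (SNF2L), its paralog best known from the brain, read 3.55, 3.28 and 3.20 in Merit40-/- and 3.42, 3.19 and 3.56 in WT, below the median of all genes on each array. Smarcad1, a remodeller of heterochromatin that also acts in DNA end resection, had the narrowest spread of these SMARC genes, at 8.40 ± 0.03 in Merit40-/- and 8.36 ± 0.06 in WT (SD, n = 3 each). Smarcal1, which rewinds DNA at stalled replication forks, averaged 8.04 ± 0.12 in Merit40-/- and 7.99 ± 0.15 in WT (SD, n = 3 each).

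**Figure D3:**
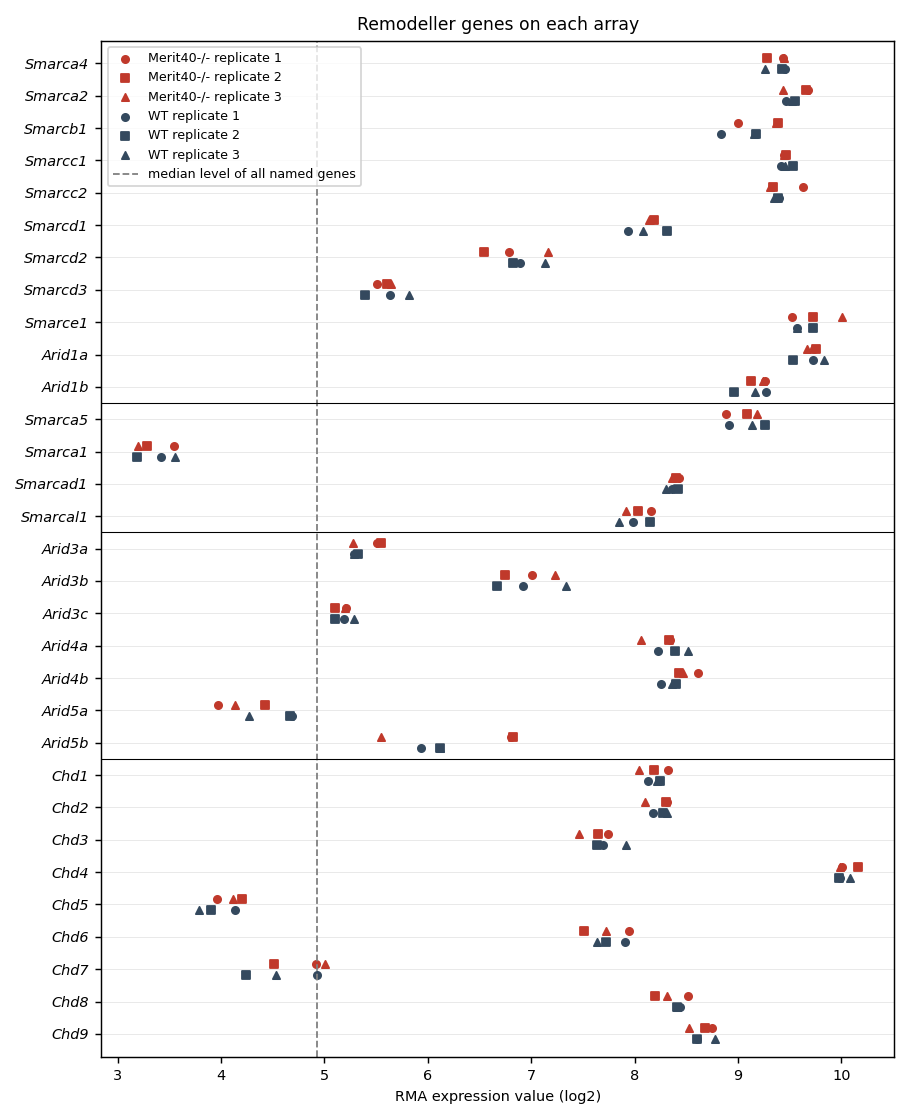
RMA expression value on the log2 scale (x axis) of each of the 31 remodeller genes on each of the 6 arrays, with Merit40-/- in red above WT in dark blue, the marker shape giving the replicate and horizontal lines dividing the families. Values of different genes are not comparable as amounts. The groups overlap in every gene but Arid4b, and the red triangle of Arid5b, replicate 3 at 5.55, lies far below the other 2 red points.

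With all arrays, the ARID genes outside SWI/SNF held the largest differences, in both directions. The highest difference was that of Smarcb1 (0.32) without Merit40-/- replicate 1. It was that of Chd7 without Merit40-/- replicate 2 (0.40) or WT replicate 1 (0.43). Arid5b, a DNA-binding partner of the histone demethylase PHF2 whose human variants are linked to childhood lymphoblastic leukaemia, was the most scattered of the 31 genes. It read 6.80, 6.83 and 5.55 on the Merit40-/- arrays and 5.93, 6.11 and 6.12 on the WT arrays. Replicates 1 and 2 of Merit40-/- were thus above every WT array and replicate 3 below every WT array. With all arrays the difference was 0.34 (SE 0.32, 95% interval -0.39 to 1.07, adjusted p = 0.999 in limma). Without Merit40-/- replicate 3 it was 0.76, at an unadjusted p of 0.00069 and an adjusted p of 0.937 in limma. Replicate 3 is the array with high osteoclast genes, where Ctsk read 7.94 against at most 3.89 on the other arrays and Acp5 7.91 against at most 5.19. On that array 6 of the 8 osteoclast genes were higher than on any other array, while Calcr and Dcstamp, at 3.51 and 3.58, were not. The part of these cells in the low Arid5b value was not tested.

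Arid5a, which encodes a stabiliser of inflammatory messenger RNAs, differed the other way. It read 3.97, 4.43 and 4.14 in Merit40-/- and 4.68, 4.67 and 4.27 in WT, below the median of all genes on each array. The highest Merit40-/- array lay above the lowest WT array. The difference was -0.36 (SE 0.17, 95% interval -0.75 to 0.03), with the smallest unadjusted p of the 31 genes in limma (0.0666, adjusted p = 0.999).

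ARID4A and ARID4B bind the retinoblastoma protein and recruit the SIN3 deacetylase complex. Arid4b was the only 1 of the 31 genes (3.23%) whose arrays did not overlap between the genotypes, where 9.05% of all named genes did not overlap and 4.84% did so with Merit40-/- higher. It read 8.62, 8.43 and 8.47 in Merit40-/- and 8.25, 8.40 and 8.37 in WT. The groups were narrowly apart, with 8.43 the lowest Merit40-/- value and 8.40 the highest WT value, and the difference was 0.17 (SE 0.12, 95% interval -0.10 to 0.44). Arid4a read 8.34, 8.33 and 8.06 in Merit40-/- and 8.22, 8.39 and 8.52 in WT, a difference of -0.13 (95% interval -0.45 to 0.18).

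The ARID3 genes encode DNA-binding factors of which ARID3A (Bright) is known from B cells and fetal blood formation. Arid3a read 5.51, 5.55 and 5.28 in Merit40-/- and 5.28, 5.32 and 5.28 in WT. Replicates 1 and 2 of Merit40-/- were higher than WT and replicate 3 was level with it, for a difference of 0.15 (95% interval -0.13 to 0.43). Arid3b averaged 6.99 ± 0.24 in Merit40-/- and 6.98 ± 0.34 in WT (SD, n = 3 each), with replicate 3 the highest and replicate 2 the lowest array in each genotype. Arid3c averaged 5.17 ± 0.06 in Merit40-/- and 5.19 ± 0.09 in WT (SD, n = 3 each). Over the 7 ARID genes outside SWI/SNF, 4 had the higher mean in Merit40-/- and 3 the lower.

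Among the CHD genes the differences centred on 0, with 3 higher and 6 lower means in Merit40-/- and a median of -0.01. Chd4 (Mi-2beta), the motor of NuRD in most cells, read 10.00, 10.16 and 9.98 in Merit40-/- and 9.98, 9.97 and 10.08 in WT. The groups overlapped, with a difference of 0.04 (95% interval -0.23 to 0.30). Chd3, its paralog, read 7.74, 7.65 and 7.46 in Merit40-/- and 7.69, 7.63 and 7.92 in WT, a difference of -0.13 (95% interval -0.44 to 0.18). Chd5, the NuRD motor of neurons and testis, averaged 4.09 ± 0.12 in Merit40-/- and 3.94 ± 0.18 in WT (SD, n = 3 each), below the median of all genes.

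CHD1 reads methylated histone H3 tails at active promoters, and CHD2 is its nearest relative. Chd1 averaged 8.19 ± 0.14 in Merit40-/- and 8.20 ± 0.06 in WT, and Chd2 averaged 8.24 ± 0.12 in Merit40-/- and 8.25 ± 0.07 in WT (SD, n = 3 each). Their differences were -0.02 (95% interval -0.30 to 0.27) and -0.01 (95% interval -0.29 to 0.26). CHD7, the protein mutated in CHARGE syndrome, binds enhancers. Chd7 read 4.92, 4.51 and 5.01 in Merit40-/- and 4.93, 4.24 and 4.53 in WT, with replicate 2 the lowest array in each genotype. Its difference of 0.25 (SE 0.21, 95% interval -0.23 to 0.72) was smaller than its range within WT of 0.69. Chd8, an inhibitor of beta-catenin signalling, read 8.51, 8.20 and 8.31 in Merit40-/- and 8.44, 8.41 and 8.41 in WT, a difference of -0.08 (95% interval -0.36 to 0.21). Chd6 and Chd9, less studied relatives of Chd7 and Chd8, differed by -0.03 (95% interval -0.37 to 0.31) and -0.0063 (95% interval -0.29 to 0.28).

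For 26 of the 31 genes the difference between the genotype means was smaller than the range of the 3 WT arrays, and over all named genes this held for 84.8%. The arrays themselves differed slightly. The median deviation of the remodeller genes from their own means was 0.05, 0.01 and -0.01 in Merit40-/- replicates 1, 2 and 3, and -0.03, -0.02 and -0.0069 in WT replicates 1, 2 and 3. Over all named genes these medians lay between -0.01 and 0.0064. Merit40-/- replicate 3 was the lowest array for 9 of the 31 genes, of which 4 were CHD genes, and Merit40-/- replicate 1 the highest for 8. WT replicate 3 was the highest array for 9 genes and WT replicate 2 the lowest for 8.

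**Figure D4:**
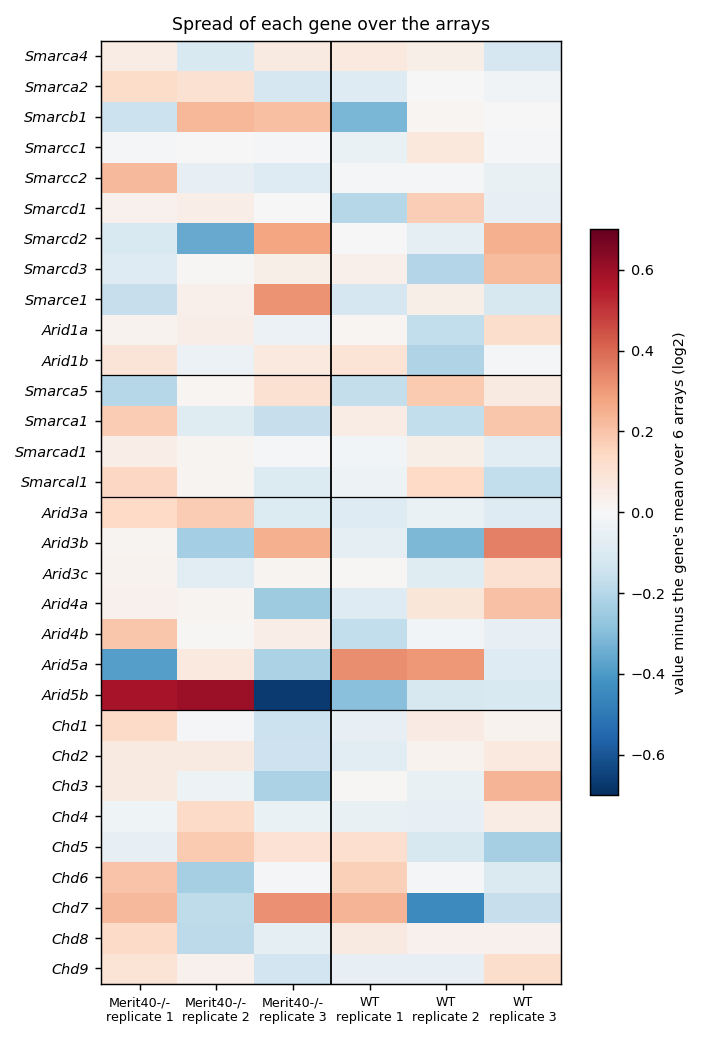
Deviation of each remodeller gene (rows) from its own mean over the 6 arrays, on the log2 scale as colour, with the Merit40-/- arrays left of the WT arrays and lines between the families. The strongest colours are those of Arid5b, high in Merit40-/- replicates 1 and 2 and low in replicate 3. Merit40-/- replicate 3 is the lowest array in 9 of the 31 rows.

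Several of these genes encode subunits that replace each other, so the log2 ratio within each of 14 paralog pairs was compared between the genotypes. Such a ratio shows only whether both genes of a pair changed unequally. The Smarca4/Smarca2 ratio, relative to its WT mean, was -0.11, -0.25 and 0.15 on the Merit40-/- arrays and 0.12, 0.0045 and -0.13 on the WT arrays, a change of -0.07 with overlapping groups. The Arid1a/Arid1b ratio changed by -0.06 and the Smarcc1/Smarcc2 ratio by -0.06, again with overlapping groups. The Arid4a/Arid4b ratio was the only 1 of the 14 in which the groups did not overlap, where 9.05% of named genes taken singly did not. The pair holds Arid4b, the gene whose own arrays did not overlap, so the ratio is not a separate observation. It was -0.31, -0.14 and -0.45 on the Merit40-/- arrays and -0.07, -0.05 and 0.11 on the WT arrays, a change of -0.30. Its exact 2-sided permutation p was 0.1, the smallest that 3 arrays against 3 allow, and its p adjusted over the 14 pairs was 1. The Arid5a/Arid5b ratio changed most, by -0.70 (-1.10 without Merit40-/- replicate 3 and -0.39 without Merit40-/- replicate 1), but read -1.32, -0.88 and 0.10 on the Merit40-/- arrays and 0.27, 0.07 and -0.33 on the WT arrays (exact permutation p = 0.3). With 3 arrays against 3, no pair could pass the threshold in this exact test.

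**Figure D5:**
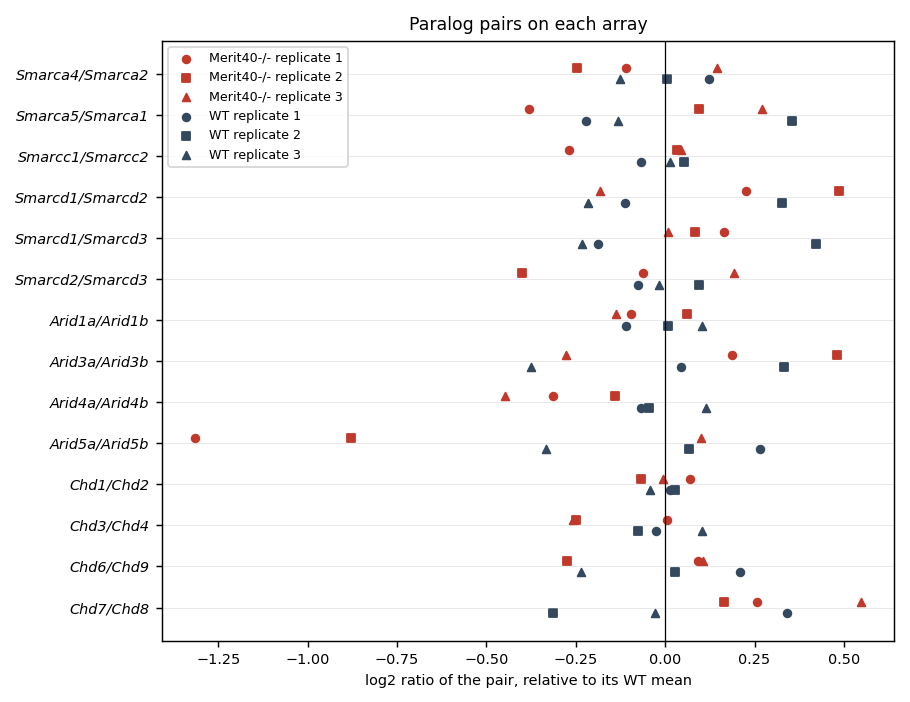
Log2 ratio of each of the 14 paralog pairs on each array, relative to the mean of the WT arrays for that pair (x axis), with Merit40-/- in red above WT in dark blue and the marker shape giving the replicate. The Arid4a/Arid4b row alone has all red points left of all dark blue points. The Arid5a/Arid5b row has 2 red points far left and 1, replicate 3, among the WT points.

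Transcripts of partner subunits, of the SIN3 complex and of other remodellers were measured as well, as 69 genes in 5 overlapping lists. None of the 69 passed an adjusted p of 0.05 in limma, and 2 (2.90%) had an unadjusted p under 0.05, beside 4.22% of all named genes. Their median difference was -0.0086, and 4 of the 69 (5.80%) did not overlap between the genotypes, beside 9.05% of all named genes. Of the 19 SWI/SNF partner genes, 10 had the higher mean in Merit40-/- and 9 the lower. They include Arid2 and Pbrm1, subunits of the PBAF form, which differed by -0.21 (SE 0.15) and -0.06 (SE 0.17). Of the partner genes known from neurons, Actl6b, Dpf1 and Dpf3 lay below the median level in both genotypes. Ss18l1 (CREST), also known from neurons, lay above it, at 6.09, 6.13 and 6.01 in Merit40-/- and 5.98, 5.76 and 5.92 in WT, without overlap (difference 0.19, SE 0.12). Bcl11b, a T cell factor below the median level, had the lowest difference of the list at -0.30 and Dpf3 the highest at 0.27. Among the 11 measured NuRD partners, Mbd3, a methyl-CpG-binding domain protein of the complex, read 7.41, 7.39 and 7.49 in Merit40-/- and 7.18, 7.14 and 6.78 in WT. The groups did not overlap, and the difference was 0.40 (SE 0.14, unadjusted p = 0.0206, adjusted p = 0.999 in limma).

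Among the 14 SIN3 genes, Sap30, a subunit that binds the deacetylase core, read 8.32, 8.74 and 8.62 in Merit40-/- and 8.79, 9.08 and 8.92 in WT. These groups did not overlap either, at a difference of -0.37 (SE 0.15, unadjusted p = 0.0362, adjusted p = 0.999 in limma). Sap130 of the same complex did not overlap in the other direction, narrowly, at 9.41 ± 0.07 in Merit40-/- and 9.24 ± 0.10 in WT (SD, n = 3 each), a difference of 0.17 (SE 0.12). Sin3 is the complex that ARID4A and ARID4B join, and 6 of its 14 genes had the higher mean in Merit40-/- and 8 the lower. The 11 ISWI partners ranged from -0.28 for Baz1a to 0.21 for Chrac1, and the 20 genes of INO80, SRCAP and other SNF2 motors from -0.27 for Actr5 to 0.34 for Ttf2. Neither list held a gene at an unadjusted p under 0.05 in limma.

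The promoters of the remodeller genes were rich in CpG dinucleotides, which the choice of genes did not use. RefSeq windows of the build GRCm38.p6, from 250 bases before to 50 bases after a transcript start, were at hand for 24 of the 31 genes, as 30 windows. Smarce1, Arid3a, Arid4a, Chd1, Chd2, Chd3 and Chd7 had none. The median window held 25.5 CpG dinucleotides, beside 13 over the 21138 windows of all named genes and 20 over those of genes at or above the median level. By a usual rule for CpG islands (over 50% G and C and an observed over expected CpG ratio above 0.6), 25 of 30 windows (83.3%) qualified, beside 45.4% of all windows and 65.1% of those of genes at or above the median level. A GC box (GGGCGG, either strand) was found in 24 of 30 windows (80.0%), beside 46.8% and 61.8%. The motif TATAAA, on either strand, was found in 2 of 30 windows (6.67%), beside 12.1% of all windows and 7.26% of those of genes at or above the median level. Those 2 windows are those of Smarcd2 and Arid5b. Some windows of the same gene overlap, as for Chd4 and Chd5, so the windows are not independent. The genes at or above the median level are not matched in level, with a median of 7.10 beside 8.25 for the remodeller genes. A RefSeq start need not be the start used in HSCs, and a motif match is a description of the letters only.

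Promoters are shown for 4 genes: the paralogs Smarcd1 and Smarcd2, a pair with unlike CpG content, Arid4b, the gene whose arrays did not overlap, and Arid5b, the gene with the widest spread. They are printed 5′ to 3′ on the strand of the gene, with CpG dinucleotides in capitals. The Smarcd1 window (chr15:99702037-99702336, plus strand) holds 35 CpG, the Smarcd2 window (chr11:106267583-106267882, minus strand) 4, the Arid4b window (chr13:14063534-14063833, plus strand) 14 and the Arid5b window (chr10:68278677-68278976, minus strand) 7.
Smarcd1: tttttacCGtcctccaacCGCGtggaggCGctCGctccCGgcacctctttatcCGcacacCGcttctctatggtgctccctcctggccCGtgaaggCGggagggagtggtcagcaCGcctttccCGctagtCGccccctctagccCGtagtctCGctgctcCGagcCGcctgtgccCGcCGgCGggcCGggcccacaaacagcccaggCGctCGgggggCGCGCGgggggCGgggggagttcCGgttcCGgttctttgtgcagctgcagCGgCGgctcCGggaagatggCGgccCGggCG
Smarcd2: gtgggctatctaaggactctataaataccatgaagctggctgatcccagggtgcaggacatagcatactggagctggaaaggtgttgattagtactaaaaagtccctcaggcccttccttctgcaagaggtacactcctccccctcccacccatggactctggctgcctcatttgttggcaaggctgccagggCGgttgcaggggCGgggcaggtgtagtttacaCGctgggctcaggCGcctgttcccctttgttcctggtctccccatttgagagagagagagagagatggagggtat
Arid4b: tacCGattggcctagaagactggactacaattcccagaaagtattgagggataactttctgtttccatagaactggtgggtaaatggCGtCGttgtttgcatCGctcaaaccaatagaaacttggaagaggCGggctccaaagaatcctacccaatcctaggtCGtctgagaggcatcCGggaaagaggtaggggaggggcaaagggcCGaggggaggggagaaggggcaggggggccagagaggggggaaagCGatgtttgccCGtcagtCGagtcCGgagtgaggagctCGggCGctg
Arid5b: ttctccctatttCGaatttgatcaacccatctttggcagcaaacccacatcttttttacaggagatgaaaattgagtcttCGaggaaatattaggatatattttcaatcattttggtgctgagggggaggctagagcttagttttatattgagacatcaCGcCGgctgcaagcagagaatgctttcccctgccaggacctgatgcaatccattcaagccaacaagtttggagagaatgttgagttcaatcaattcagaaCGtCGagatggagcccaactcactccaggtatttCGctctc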

How the data were processed

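Sorted HSCs were measured on 6 Affymetrix mouse gene arrays. The deposited log2 values, 1 per probe set and array, came from the authors' use of RMA and affy, per the submitters' processing notes. Neither software versions nor a probe set definition or build is stated (not given in the sources used here), and scanner intensities were not analysed. Per the labels' protocols, 50 ng of miRNeasy RNA was amplified with the NuGEN Pico chemistry. The arrays are labelled biological replicates without naming mice, so p-values measure the spread between arrays, whose number limits the precision.

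Probe sets carry Entrez Gene numbers. Of 25206, 23185 had 1 symbol and 2021 none. All 23185 numbers matched the RefSeq gene table (GRCm38.p6), the source of current symbols. These genes, unfiltered, entered a limma model (version 3.58.1, R 4.3.3, moderated by eBayes) with genotype alone, 2-sided, adjusted over all of them by Benjamini-Hochberg. The 95% intervals use the moderated SE. Paralog ratios were compared by exact permutation of the arrays (scipy 1.17.1), adjusted over 14 pairs. The model was tested on simulated data. Genes named are all 31 members, Babam1 and, of each partner list, those at an unadjusted p under 0.05 or the highest and lowest. Marker genes of the sort and of arrays that stand apart (Slamf1, Kit, Mb, Ctsk, Acp5, Calcr and Dcstamp) were picked with their values known. So were Arid2, Pbrm1, Ss18l1, Sap130, the dim partner genes and the promoters shown. The members, lists, pairs and tests were chosen with earlier results of these data known. Alternatives were a replicate block, other variance priors, array weights, 2 scalings, a filter on dim genes, an unmoderated test, all probe sets and each array left out.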

Additional observations from a re-analysis of the deposited data

How the results depend on the processing

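No remodeller gene passed an adjusted p of 0.05 in limma under any of the 15 alternatives. The unmoderated test per gene called 0 of all named genes (990 at an unadjusted p under 0.05), with Babam1 at -3.94 and an adjusted p of 0.168; the cause was not tested. The replicate block left the members called at 0 and Babam1 at -3.94, and a paired exact test of the pair ratios cannot go below 0.25. Arrays of the same number did not deviate together (r -0.05 to 0.04 over genes). With 3 arrays per genotype this cannot decide whether the arrays were paired, which the labels do not state. With 1 array left out, the count of members at an unadjusted p under 0.05 was 0 to 1. It was Arid5a without WT replicate 3 or Merit40-/- replicate 2, and Arid5b without Merit40-/- replicate 3. All named genes called stayed at 1, and the members' median difference ranged from 0.0067 to 0.049, highest without Merit40-/- replicate 3. The members without overlap numbered 2 to 5, where fewer arrays make separation easier (16.9% to 19.6% of all genes).

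Signs near 0 were not stable. With array weights Smarca4 was -0.0045, Chd2 0.00052 and Chd9 0.0060; median centring gave Chd9 0.0052 and quantile normalization gave Smarca4 -0.016. With 1 array left out, 18 members changed sign in at least 1 setting and 13 did not. The lowest and highest differences were -0.050 and 0.061 for Smarca4, -0.040 and 0.018 for Smarcc1, -0.051 and 0.11 for Smarcc2, -0.031 and 0.15 for Smarcd1, -0.29 and 0.022 for Smarcd2, and -0.14 and 0.071 for Smarcd3. They were -0.059 and 0.089 for Arid1a, -0.0063 and 0.15 for Arid1b, -0.15 and 0.035 for Smarca5, -0.15 and 0.038 for Smarca1, -0.030 and 0.12 for Smarcal1, -0.13 and 0.20 for Arid3b, and -0.068 and 0.026 for Arid3c. For the CHD genes they were -0.086 and 0.056 for Chd1, -0.054 and 0.055 for Chd2, -0.019 and 0.072 for Chd4, -0.14 and 0.077 for Chd6, and -0.056 and 0.059 for Chd9. The 13 that kept their sign ranged from 0.033 to 0.16 for Smarca2, 0.089 to 0.32 for Smarcb1, 0.00051 to 0.24 for Smarce1, 0.0056 to 0.062 for Smarcad1, 0.097 to 0.23 for Arid3a, -0.21 to -0.042 for Arid4a, 0.11 to 0.20 for Arid4b, -0.49 to -0.26 for Arid5a, 0.12 to 0.76 for Arid5b, -0.19 to -0.044 for Chd3, 0.071 to 0.25 for Chd5, 0.083 to 0.43 for Chd7 and -0.16 to -0.0067 for Chd8. The pair ratios that changed sign ranged from -0.18 to 0.017 for Smarca4/Smarca2, -0.14 to 0.18 for Smarca5/Smarca1, -0.12 to 0.039 for Smarcc1/Smarcc2, -0.031 to 0.30 for Smarcd1/Smarcd3, -0.23 to 0.064 for Smarcd2/Smarcd3, -0.059 to 0.33 for Arid3a/Arid3b, -0.037 to 0.032 for Chd1/Chd2 and -0.14 to 0.099 for Chd6/Chd9. The other pairs ranged from 0.022 to 0.36 for Smarcd1/Smarcd2, -0.12 to -0.0061 for Arid1a/Arid1b, -0.38 to -0.23 for Arid4a/Arid4b, -1.10 to -0.39 for Arid5a/Arid5b, -0.25 to -0.12 for Chd3/Chd4 and 0.17 to 0.49 for Chd7/Chd8. Smarca1 had no value without the dimmest 30% of genes.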
